A study of Homo sapiens with 18 samples.

Results

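Aminoacyl-tRNA synthetases, the enzymes that join each amino acid to its tRNA, were followed in RNA-seq counts of 18 samples of VCaP, a prostate cancer cell line that expresses the transcription factor ERG from the TMPRSS2:ERG fusion. The members are 35 named synthetase genes, taken from the 22034 genes of the table by their symbols. Of these, 17 encode cytosolic enzymes (symbols ending in 1, with the FARSA and FARSB subunits), 16 encode mitochondrial enzymes (symbols ending in 2), and GARS1 and KARS1 serve both compartments. All 35 were among the 14164 genes that passed the filter on low counts, and their lowest count in any sample was 4, for SARS2. VCaP-shERG cells, which carry an ERG hairpin on the pLKO-Tet-on vector, were given DMSO or doxycycline (Dox) at 1 µg/mL. Parental VCaP cells were given DMSO, or 50 µM PBITE-1, a small molecule made to bind the PNT domain of ERG, for 4, 8, or 12 h. Each of the 6 groups held 3 samples. The duration of Dox and the collection time of the parental DMSO samples are not given in the labels, and no Dox-treated cells without the ERG hairpin were analysed here. The 3 PBITE-1 times share the same DMSO samples.

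Synthetases supply charged tRNA to ribosomes, and uncharged tRNA activates the kinase GCN2, which phosphorylates eIF2alpha. Phosphorylated eIF2alpha slows general translation but favors translation of ATF4, the transcription factor of the integrated stress response, and genes of many cytosolic synthetases are known ATF4 targets. Mitochondrial synthetases are encoded in the nucleus, are imported, and charge the tRNA used to make respiratory chain subunits. Several cytosolic synthetases are held in the multi-tRNA synthetase complex together with scaffold proteins.

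Promoters are shown first for the members at the extremes of the response to PBITE-1 at 12 h, because these members moved most in each direction. The sequences are from RefSeq on GRCh38.p14, run from 250 bases before to 50 bases after the annotated start, and are written on the strand of the gene. Of the 35 members, 30 had an entry, and LARS1, VARS1, YARS1, AARS2, and VARS2 had none. Capitals mark TGATGNAA (an element bound by ATF4 with C/EBP partners) and CCGGAAG (a site of the ETS family, to which ERG belongs), on either strand. CARS1 and AARS1 had the most positive log2 fold changes at 12 h, and SARS2 the most negative.
CARS1, chr11:3057374-3057673, minus strand: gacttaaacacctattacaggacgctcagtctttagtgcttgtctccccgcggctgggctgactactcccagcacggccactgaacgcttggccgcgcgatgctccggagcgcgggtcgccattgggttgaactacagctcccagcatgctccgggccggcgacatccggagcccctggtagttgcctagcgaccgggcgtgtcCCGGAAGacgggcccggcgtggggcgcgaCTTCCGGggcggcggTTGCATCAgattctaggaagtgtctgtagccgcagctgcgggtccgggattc
AARS1, chr16:70289457-70289756, minus strand: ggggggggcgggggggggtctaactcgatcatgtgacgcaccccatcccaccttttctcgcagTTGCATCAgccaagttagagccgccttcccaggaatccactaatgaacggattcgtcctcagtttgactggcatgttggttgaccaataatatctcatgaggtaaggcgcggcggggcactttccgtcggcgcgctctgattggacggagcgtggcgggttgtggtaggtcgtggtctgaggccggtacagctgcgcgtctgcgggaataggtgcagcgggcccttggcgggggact
SARS2, chr19:38930714-38931013, minus strand: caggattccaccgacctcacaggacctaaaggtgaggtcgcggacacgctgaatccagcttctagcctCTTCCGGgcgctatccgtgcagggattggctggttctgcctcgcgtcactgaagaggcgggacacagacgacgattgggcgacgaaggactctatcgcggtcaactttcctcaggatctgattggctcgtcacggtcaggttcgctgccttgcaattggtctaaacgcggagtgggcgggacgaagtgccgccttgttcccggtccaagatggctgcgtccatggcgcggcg

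The element TGATGNAA was present in 7 of the 30 member promoters (23.3%), against 3.67% of all 27305 promoters and 1.64% of the 10946 promoters of tested genes. The stricter form TGATGCAA, which lies within it, was present in 6 members (20%), against 0.923% and 0.466%. All 6 were cytosolic, of 14 cytosolic members with a promoter entry, and the seventh element, in YARS2, was the only one among 14 mitochondrial promoters. At 12 h the 6 cytosolic genes had log2 fold changes between 0.19 (NARS1) and 2.59 (CARS1), all passing the test, and YARS2 had -0.51. Of the 8 cytosolic genes whose promoter entry lacked the element, 4 also passed as higher, namely SARS1 (1.04), WARS1 (0.64), EPRS1 (0.59), and QARS1 (0.21), while 3 were lower. The shared GARS1 lacked it as well and was at 1.43, above 4 of the 6 genes that had it. The ETS letters CCGGAAG were present in 14 of the 30 (46.7%), in 6 of 14 cytosolic and 6 of 14 mitochondrial promoters, against 10.7% of all promoters and 18.5% of those of tested genes. The E-box CACGTG, bound by MYC, was present in 4 (13.3%, against 7.43% and 9.86%), and the cAMP element TGACGTCA in none (against 1.98% and 3.25%). A match of letters is a description and not a measured binding site. The ATF4 elements not printed above are given here with 11 bases on each side, and this set was chosen after the values were seen.
TARS1, chr5:33440956-33440985, plus strand: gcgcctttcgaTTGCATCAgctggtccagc
MARS1, chr12:57488053-57488082, plus strand: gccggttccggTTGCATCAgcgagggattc
IARS1, chr9:92293692-92293721, minus strand: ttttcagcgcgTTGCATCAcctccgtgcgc
NARS1, chr18:57621804-57621833, minus strand: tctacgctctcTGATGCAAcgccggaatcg
YARS2, chr12:32756076-32756105, minus strand: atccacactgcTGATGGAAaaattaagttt

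ERG (ENSG00000157554) was read first because the hairpin targets it. Its level was 461, 449, and 433 CPM in the shERG DMSO samples and 166, 167, and 159 CPM with Dox, where CPM are library-scaled counts after TMM. All Dox samples were below all their controls, and the log2 fold change was -1.44 with SE 0.04 (adjusted p = 3.29e-22, limma-voom). In parental cells ERG was between 280 and 298 CPM in DMSO and between 88.5 and 102 CPM at 12 h. Totals were between 11308600 and 17483423 counts per sample, so 3 counts corresponded to between 0.171 and 0.269 CPM. Of 9 prostate epithelial markers, all 9 were tested, and their summed level was between 8000 and 8140 CPM in DMSO, between 3870 and 4560 CPM at 12 h, between 10800 and 11100 CPM in shERG DMSO, and between 6860 and 7060 CPM with Dox. By calls, 4 of the 9 were higher and 4 lower with Dox, against 35.1% and 35.3% of all genes tested. At 12 h, 2 were higher and 6 lower, against 39.4% of all genes in each direction. The sums therefore do not stand for every marker. Of 10 markers of immune, endothelial, fibroblast, and basal cells, 5 were tested, and their summed level was between 2.44 and 3.88 CPM in DMSO, between 7.19 and 10.7 CPM at 12 h, between 2.57 and 3.59 CPM in shERG DMSO, and between 7.29 and 8.14 CPM with Dox. PTPRC, CD3E, COL3A1, and DCN had at most 4 counts in any sample, and COL1A1, a collagen gene, made up most of the sum at 12 h, with between 4.17 and 7.19 CPM. The part of these shifts in the results below was not tested, and in bulk samples fewer cells of a type and less RNA per cell cannot be told apart.

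At the start, cytosolic genes were more abundant than mitochondrial ones. Per kilobase of exon (GENCODE 29), levels in DMSO had a median of 22.4 CPM per kb over the 17 cytosolic genes, from 2.29 to 49.5, and of 6.05 CPM per kb over the 16 mitochondrial genes, from 0.766 to 27.6. EPRS1, the fused enzyme for glutamate and proline, was highest at 49.5 ± 2.27 CPM per kb (SD, n = 3). FARSB, the beta subunit for phenylalanine, followed with 39.8 ± 2.18, then NARS1 for asparagine with 34.7 ± 0.816. From IARS1 (30 ± 0.992) down to CARS2 (22.0 ± 0.437), each gene differed from the next in order by less than their summed SD, so neighbors among these 9 genes were not clearly ordered, although the ends of the run were apart. CARS1 was the lowest cytosolic gene with 2.29 ± 0.069 CPM per kb, near the mitochondrial PARS2 (2.20 ± 0.578), and FARS2 was lowest of all with 0.766 ± 0.207. This order depends on the exon length, which counts every base in any annotated exon. The length was 10037 bases for CARS1 and 2347 for PARS2, and their mean levels without it were 23 and 5.16 CPM.

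After ERG knockdown the members moved down together. With Dox, 29 of 35 members passed as lower with an adjusted p below 0.05 (82.9%), against 35.3% of all genes tested, and 0 were higher, against 35.1%. The count of higher members was also 0 at an unadjusted limma p under 0.05, by edgeR, and by DESeq2. The 29 were 16 of 17 cytosolic genes, both shared genes, and 11 of 16 mitochondrial genes, and in each of the 29 all Dox samples lay below all controls, which held for 36.4% of all genes. All 35 log2 fold changes were negative, with a median of -0.53 for cytosolic and of -0.34 for mitochondrial members, against 0.02 over all genes tested. Past the stricter limit of a log2 fold change below -1 were 5 members, MARS2, VARS1, FARSB, EARS2, and YARS1, where 7.19% of all genes were lower and 12.0% higher by this rule. Those that did not pass were CARS1, FARS2, PARS2, RARS2, SARS2, and TARS2. The direction depends on the scaling for the small changes. On library size only, the median of all genes was 0.28, and 10 members became positive, namely AARS1, CARS1, WARS1, AARS2, HARS2, IARS2, PARS2, RARS2, SARS2, and TARS2, while 21 stayed lower and 3 were higher. Relative to that shift all 35 members were still below the median of all genes, with a median difference of -0.49.

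MARS2, the mitochondrial enzyme for methionine, had the most negative change with Dox. It read 27.2, 27.9, and 28.9 CPM in shERG DMSO and 11.4, 8.63, and 8.76 CPM with Dox, a log2 fold change of -1.55 (SE 0.11, adjusted p = 2.36e-12). The groups were far apart, and its level with Dox was at most 11.4 CPM. VARS1, the cytosolic enzyme for valine, went from 142, 141, and 138 CPM to 59.6, 54.0, and 55.7 CPM (-1.32, SE 0.05, adjusted p = 2.84e-18). FARSB went from 165, 164, and 156 CPM to 67.9, 68.6, and 69.3 CPM (-1.23, SE 0.05, adjusted p = 1.93e-18). Its partner FARSA, the alpha subunit of the same enzyme, had -0.72 (SE 0.06). EARS2, the mitochondrial enzyme for glutamate, went from 35.9, 36.4, and 39.8 CPM to 16.8, 17.9, and 15.6 CPM (-1.16, SE 0.09, adjusted p = 4.18e-12). YARS1, for tyrosine, had -1.15 (SE 0.06) and IARS1, for isoleucine, -0.98 (SE 0.04).

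At the other end were the least lowered members that passed. AARS1, for alanine, read 141, 147, and 148 CPM in shERG DMSO and 135, 131, and 131 CPM with Dox, a log2 fold change of -0.13 (SE 0.04, adjusted p = 0.00517). With a filter of at least 10 counts in every sample AARS1 did not pass (-0.08, adjusted p = 0.0686, limma-voom). WARS1, for tryptophan, read 123, 122, and 121 CPM and then 115, 112, and 99.3 CPM (-0.16, SE 0.05, adjusted p = 0.00503). Without the third Dox sample WARS1 did not pass (adjusted p = 0.0816). AARS2, the mitochondrial enzyme for alanine, read 77.1, 73.8, and 78.0 CPM and then 70.1, 66.3, and 63.8 CPM (-0.19, SE 0.05, adjusted p = 0.00246). HARS2, the mitochondrial enzyme for histidine, read 46.5, 46.8, and 45.6 CPM and then 41.2, 39.6, and 40.7 CPM (-0.19, SE 0.06, adjusted p = 0.00728). These 4 changes are small, and on library size only all 4 turned positive, between 0.07 and 0.13. CARS1, for cysteine, read 28.7, 30.5, and 26.5 CPM and then 26.1, 26.6, and 30.5 CPM, so its groups overlapped.

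**Figure D1:**
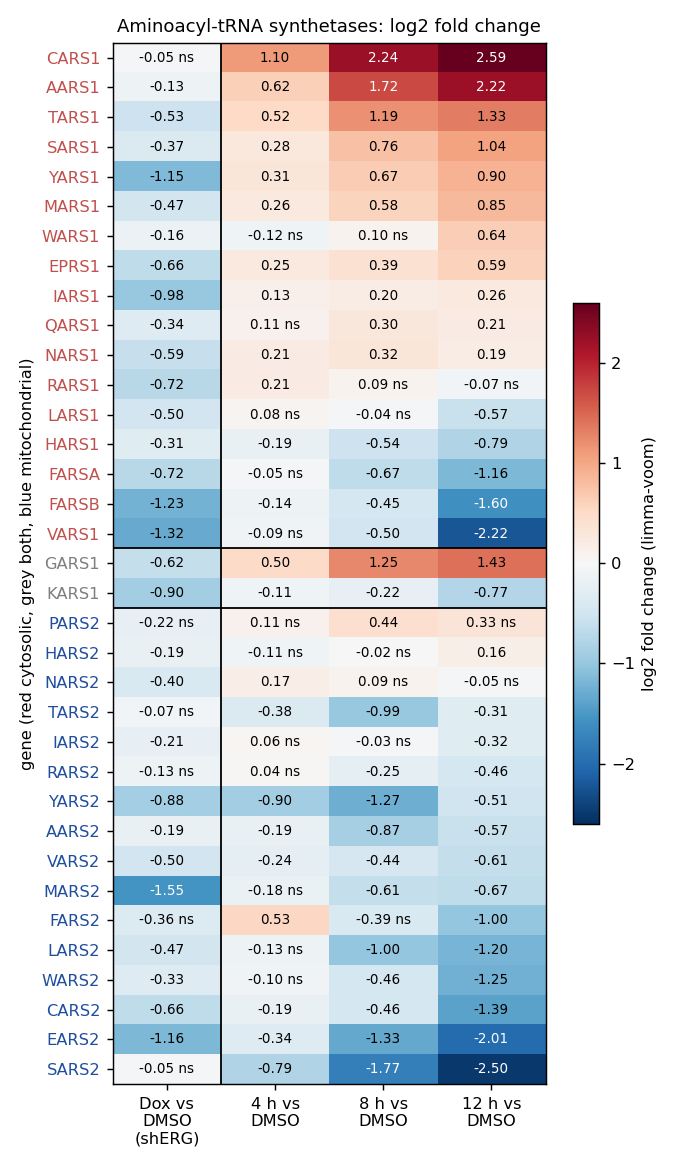
Log2 fold change (limma-voom) of the 35 synthetase genes, in rows by compartment and by the value at 12 h, in 4 comparisons in columns, with red for higher, blue for lower, and ns for an adjusted p of 0.05 or more. The Dox column is negative throughout, and the 12 h column runs from 2.59 (CARS1) to -2.50 (SARS2).

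PBITE-1 divided the members. Of the 17 cytosolic genes, 9 passed as higher at all 3 times, and CARS1, AARS1, TARS1, and the shared GARS1 rose at each step, while most mitochondrial genes and 5 cytosolic genes were lower by 12 h. At 4 h, 13 of 35 members were higher (37.1%, against 26.4% of all genes tested) and 10 were lower (28.6%, against 24.7%). The count of lower members at 4 h was 6 without the second or without the third 4 h sample. Without the second DMSO sample, IARS1, FARS2, and NARS2 no longer passed as higher. At 8 h, 12 were higher (34.3%, against 35.9%) and 16 were lower (45.7%, against 37.0%). At 12 h, 13 were higher (37.1%, against 39.4%) and 19 were lower (54.3%, against 39.4%). With all samples, the share of members higher was thus above the background at 4 h and near it later. The share lower was near it at 4 h, somewhat above it at 8 h, and most above it at 12 h. These gaps were not tested. Among the 17 cytosolic genes 10, 10, and 11 were higher at 4, 8, and 12 h (58.8%, 58.8%, and 64.7%) and 2, 4, and 5 were lower. Among the 16 mitochondrial genes 2, 1, and 1 were higher and 7, 11, and 13 were lower (43.8%, 68.8%, and 81.2%). The 2 higher at 4 h were FARS2 and NARS2, and the 1 at 8 h was PARS2. FARS2 and PARS2 overlapped DMSO at these times and did not pass by DESeq2 (adjusted p = 0.0743 and 0.0509). NARS2 did not pass on library size only (adjusted p = 0.0919, limma-voom). Median log2 fold changes of cytosolic genes were 0.21, 0.30, and 0.26, those of mitochondrial genes were -0.15, -0.46, and -0.59, and those of all genes were -0.01, -0.02, and -0.01. The contrast between compartments is a description, since the genes were chosen with earlier results known.

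Changes past 2-fold were on both sides. At 4 h only CARS1 was past a log2 fold change of 1, by which rule 7.28% of all genes were higher and 2.99% lower. At 8 h 4 members were above 1 (CARS1, AARS1, GARS1, and TARS1) and 3 below -1 (SARS2, EARS2, and YARS2), where 14.9% of all genes were higher and 8.86% lower. At 12 h 5 were above 1, with SARS1 added to the 4, and 8 were below -1, where 17.1% of all genes were higher and 15.4% lower. The 8 were SARS2, VARS1, EARS2, FARSB, CARS2, WARS2, LARS2, and FARSA. In the 12 h samples, 12 members lay wholly above and 19 wholly below the DMSO samples (34.3% and 54.3%, against 39.2% and 39.4% of all genes), and 4 overlapped. The first 12 h sample was the lowest of the 3 for 10 of the 13 higher members and differed most from the second over all genes, but without it the counts were again 13 and 19.

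**Figure D2:**
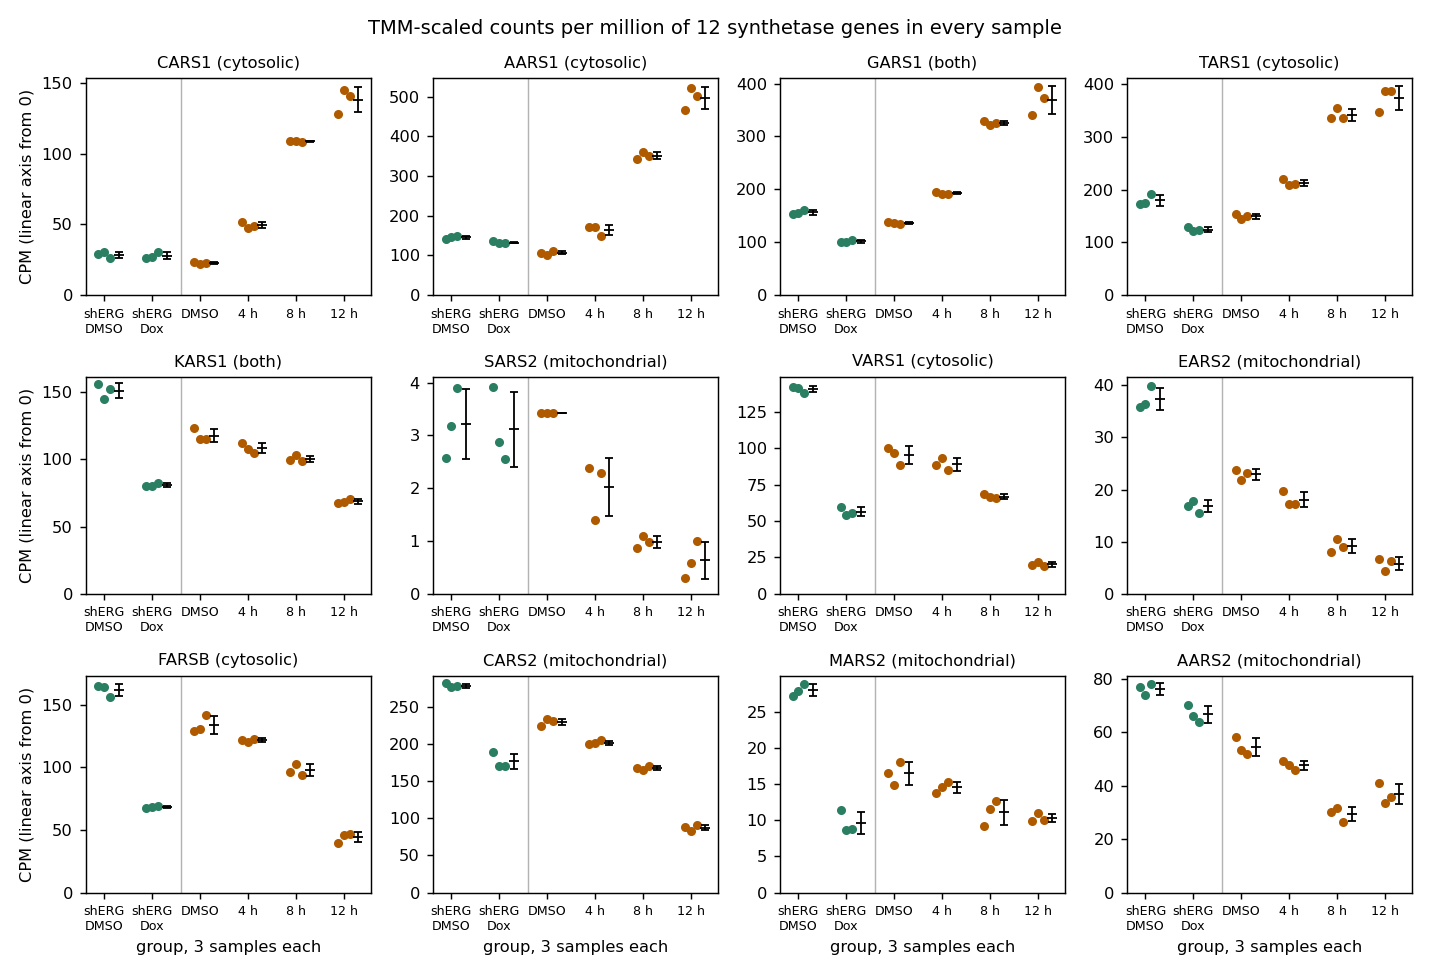
TMM-scaled CPM, on linear axes from 0, of 12 synthetase genes in every sample of the 6 groups, with green points for VCaP-shERG and orange points for parental cells, and black bars for mean ± SD (n = 3). CARS1, AARS1, GARS1, and TARS1 climb with PBITE-1 time, KARS1, VARS1, FARSB, and CARS2 drop most between 8 and 12 h, and AARS2 is lowest at 8 h.

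CARS1 rose most. It read 23.7, 22.3, and 22.9 CPM in DMSO, 51.8, 47.5, and 48.7 CPM at 4 h, 109, 109, and 108 CPM at 8 h, and 128, 145, and 141 CPM at 12 h. Every time stood clear of the one before. In log2 it was higher by 1.10 (SE 0.08) at 4 h, by 2.24 (SE 0.07) at 8 h, and by 2.59 (SE 0.07, adjusted p = 1.08e-29) at 12 h, which is 6-fold. AARS1 read 107, 102, and 110 CPM in DMSO, 172, 171, and 149 CPM at 4 h, 342, 361, and 351 CPM at 8 h, and 466, 522, and 501 CPM at 12 h. It was 4.67-fold higher at 12 h (log2 2.22, SE 0.05, adjusted p = 4.41e-32), with no overlap between successive times. TARS1, for threonine, read 154, 144, and 150 CPM in DMSO, 220, 209, and 211 CPM at 4 h, 335, 354, and 335 CPM at 8 h, and 348, 387, and 388 CPM at 12 h. Most of its rise was made by 8 h, with log2 fold changes of 1.19 (SE 0.04) at 8 h and 1.33 (SE 0.04, adjusted p = 1.65e-26) at 12 h, and the 8 and 12 h samples overlapped.

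GARS1 and KARS1, which each serve cytosol and mitochondria from a single gene, went opposite ways. GARS1, for glycine, read 138, 137, and 134 CPM in DMSO, 195, 192, and 192 CPM at 4 h, 329, 322, and 325 CPM at 8 h, and 340, 393, and 372 CPM at 12 h (log2 1.43, SE 0.04, adjusted p = 1.49e-27). KARS1, for lysine, read 123, 115, and 115 CPM in DMSO, 112, 108, and 105 CPM at 4 h, 99.2, 103, and 99.1 CPM at 8 h, and 67.5, 68.2, and 70.6 CPM at 12 h (log2 -0.77, SE 0.05, adjusted p = 5.64e-17). Both were lower with Dox. GARS1 went from 153, 155, and 161 CPM to 100, 100, and 105 CPM (log2 -0.62, SE 0.04), and KARS1 from 156, 145, and 152 CPM to 80.3, 79.8, and 82.6 CPM (log2 -0.90, SE 0.05).

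Other cytosolic members that rose by 12 h did so by less. Their log2 fold changes were 1.04 for SARS1 (serine), 0.90 for YARS1, 0.85 for MARS1 (methionine), 0.64 for WARS1, 0.59 for EPRS1, 0.26 for IARS1, 0.21 for QARS1 (glutamine), and 0.19 for NARS1. WARS1 was late. It read 92.2, 87.8, and 90.9 CPM in DMSO, 79.4, 85.7, and 83.8 CPM at 4 h, 94.5, 99.0, and 96.5 CPM at 8 h, and 148, 139, and 135 CPM at 12 h (SE 0.05, adjusted p = 2.86e-15), and its 4 and 8 h values did not pass the test. MARS1 shares 355 exon bases on the other strand with DDIT3, the gene of CHOP, which went from 10.9 to 184 CPM, and MARS1 itself went from 114 to 205 CPM. Whether the counting used strand is not given in the sources used here, so the part of DDIT3 reads in MARS1 was not tested. RARS1, for arginine, passed at 4 h (0.21) but not at 12 h (-0.07, adjusted p = 0.277).

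Of the 5 cytosolic members lower at 12 h, VARS1, FARSB, and LARS1 fell mainly after 8 h, and FARSA and HARS1 mainly before. VARS1 read 100, 96.9, and 88.4 CPM in DMSO, 88.1, 93.5, and 85.0 CPM at 4 h, 68.5, 66.2, and 65.5 CPM at 8 h, and 19.7, 22.1, and 19.1 CPM at 12 h. Its log2 fold change of -2.22 (SE 0.08, adjusted p = 9.23e-26) was made mainly between 8 and 12 h, a step of -1.72 (SE 0.08). FARSB read 129, 131, and 142 CPM in DMSO, 122, 120, and 123 CPM at 4 h, 96.3, 103, and 93.8 CPM at 8 h, and 39.5, 45.7, and 47.1 CPM at 12 h. It was -1.60 (SE 0.06, adjusted p = 1.95e-24) at 12 h, with a step of -1.15 (SE 0.06) from 8 h. LARS1, for leucine, was at -0.57 at 12 h after -0.04 at 8 h, which did not pass. FARSA was already at -0.67 at 8 h and reached -1.16 at 12 h, a step of -0.48. HARS1, for histidine, passed as lower at 4 h (-0.19) and was at -0.54 at 8 h and -0.79 at 12 h. Both subunits of the phenylalanine enzyme thus fell.

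Most mitochondrial members fell, whether abundant or rare. SARS2, the mitochondrial enzyme for serine, had the most negative value but few reads, between 4 and 60 counts per sample. It read 3.42, 3.42, and 3.43 CPM in DMSO, 2.39, 1.40, and 2.29 CPM at 4 h, 0.875, 1.10, and 0.986 CPM at 8 h, and 0.298, 0.588, and 1.01 CPM at 12 h. The groups at 8 and 12 h lay wholly below DMSO, with a wide error at 12 h (log2 -2.50, SE 0.38, adjusted p = 1.70e-07). It shares 349 exon bases on the other strand with MRPS12, which was at -1.34 at 12 h. EARS2 read 23.8, 21.8, and 23.1 CPM in DMSO, 19.8, 17.3, and 17.2 CPM at 4 h, 8.05, 10.6, and 8.97 CPM at 8 h, and 6.63, 4.45, and 6.32 CPM at 12 h (log2 -2.01, SE 0.14, adjusted p = 4.49e-16). CARS2, the mitochondrial enzyme for cysteine, was the most abundant of these by CPM. It read 225, 234, and 231 CPM in DMSO, 200, 201, and 205 CPM at 4 h, 168, 165, and 170 CPM at 8 h, and 88.7, 83.6, and 90.5 CPM at 12 h (log2 -1.39, SE 0.04, adjusted p = 5.57e-27). CARS2 shares 326 exon bases on the other strand with ING1, which went from 84.9 to 191 CPM. MARS2 read 16.5, 14.9, and 18 CPM in DMSO, 13.7, 14.6, and 15.3 CPM at 4 h, 9.22, 11.5, and 12.6 CPM at 8 h, and 9.9, 11, and 10 CPM at 12 h (log2 -0.67, SE 0.12, adjusted p = 2.31e-06). The others that fell by 12 h lay between -1.25 (WARS2) and -0.31 (TARS2). They were WARS2, LARS2, FARS2, VARS2, AARS2, YARS2, RARS2, IARS2, and TARS2. VARS2 (-0.61) shares 1858 exon bases, 22% of its own, on the same strand with GTF2H4, which was at 0.43. Some other members share exon bases with neighbors too, and the part of shared reads was not tested. HARS2 was the single mitochondrial member called higher at 12 h. It read 37.6, 35.3, and 35.9 CPM in DMSO, 34.5, 35.2, and 31.0 CPM at 4 h, 34.7, 34.3, and 38.6 CPM at 8 h, and 40.0, 39.4, and 42.1 CPM at 12 h (log2 0.16, SE 0.07, adjusted p = 0.0290), and without the second DMSO sample it did not pass (adjusted p = 0.0935). Without the third DMSO sample or the third 12 h sample it did not pass either (adjusted p = 0.0635 and 0.120). HARS2 and HARS1 overlap head to head by 437 exon bases. NARS2 (-0.05) and PARS2 (0.33) did not pass at 12 h.

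Steps between times were tested in the same fit, in contrasts that do not use the DMSO samples except in the shared estimate of the spread. From 4 to 8 h, 10 members rose (28.6%, against 26.7% of all genes) and 15 fell (42.9%, against 26.3%). The 10 were 9 cytosolic genes and GARS1, and 0 of the 16 mitochondrial genes rose, by limma's adjusted or unadjusted p, by edgeR, or by DESeq2. From 8 to 12 h, 13 rose (37.1%, against 27.8%) and 13 fell (37.1%, against 32.5%). Of the 17 cytosolic genes 8 rose and 7 fell at this later step, NARS1 (-0.14) and RARS1 (-0.15) among the latter, and IARS1 passed at neither step. This later step held a reversal in 3 mitochondrial genes. AARS2 read 58.1, 53.4, and 52.0 CPM in DMSO, 49.4, 47.6, and 45.9 CPM at 4 h, 30.3, 31.7, and 26.5 CPM at 8 h, and 41.2, 33.7, and 35.9 CPM at 12 h. All its 12 h samples were above all 8 h samples, a step of 0.30 (SE 0.08, adjusted p = 0.00152). TARS2 went from between 11.6 and 13.0 CPM at 8 h to between 19.3 and 20.3 CPM (step 0.67, SE 0.11, adjusted p = 1.98e-06). YARS2 went from between 3.05 and 5.48 CPM to between 6.79 and 8.12 CPM (step 0.77, SE 0.19, adjusted p = 0.000506). All 3 were still below DMSO at 12 h.

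**Figure D3:**
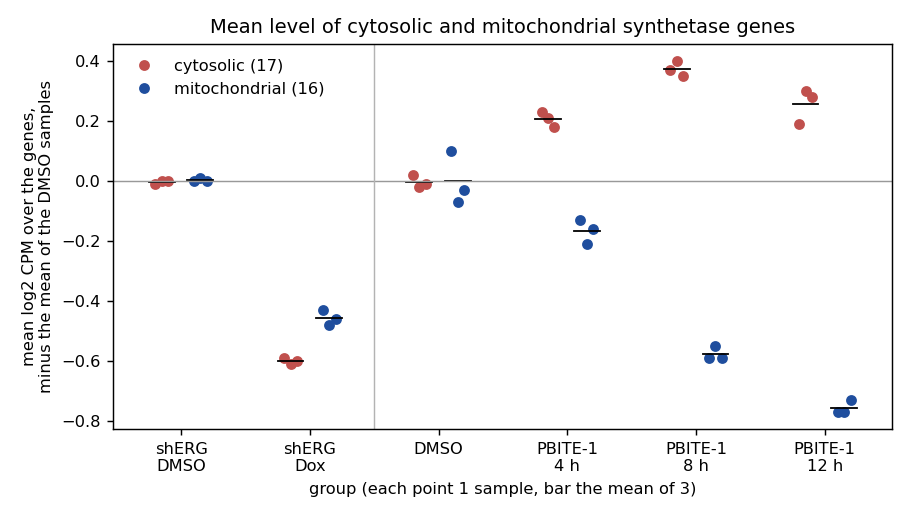
Mean log2 CPM over the 17 cytosolic and the 16 mitochondrial genes in each sample, minus the mean of the DMSO samples of the same experiment, with points for samples and bars for the mean of 3. Cytosolic samples lie between 0.18 and 0.40 after PBITE-1 and between -0.61 and -0.59 with Dox. Mitochondrial samples lie between -0.77 and -0.13 and between -0.48 and -0.43. Parental DMSO samples lie between -0.02 and 0.02 for cytosolic and between -0.07 and 0.10 for mitochondrial genes.

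As a mean over genes, parental DMSO samples lay between -0.02 and 0.02 for cytosolic genes. For mitochondrial genes they were wider apart, between -0.07 and 0.10. Mean log2 CPM of the cytosolic genes relative to DMSO was between 0.18 and 0.23 at 4 h, between 0.35 and 0.40 at 8 h, and between 0.19 and 0.30 at 12 h. That of the mitochondrial genes was between -0.21 and -0.13, between -0.59 and -0.55, and between -0.77 and -0.73. The mitochondrial samples at 4 h lay below all DMSO samples, but their shift was about as large as the DMSO spread. With Dox the means were between -0.61 and -0.59 for cytosolic and between -0.48 and -0.43 for mitochondrial genes. The compartments therefore parted with PBITE-1 and moved the same way with Dox.

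Cytosolic and mitochondrial genes for the same amino acid formed 17 pairs, counting EPRS1 with both EARS2 and PARS2, and FARS2 with both FARSA and FARSB. The cytosolic log2 fold change was the greater in 13, 12, and 13 of 17 pairs at 4, 8, and 12 h, with median differences of 0.17, 0.56, and 0.63. With Dox it was the greater in 5 of 17, with a median of -0.27. At 12 h the gap was widest for cysteine, where CARS1 at 2.59 and CARS2 at -1.39 differed by 3.98. It was 3.54 for serine, 2.79 for alanine, and 2.59 for glutamate. In 4 pairs the mitochondrial gene had the greater value, those for valine (-1.62), histidine (-0.95), and phenylalanine (-0.60 with FARSB and -0.16 with FARSA). The differences between genes were not tested.

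**Figure D4:**
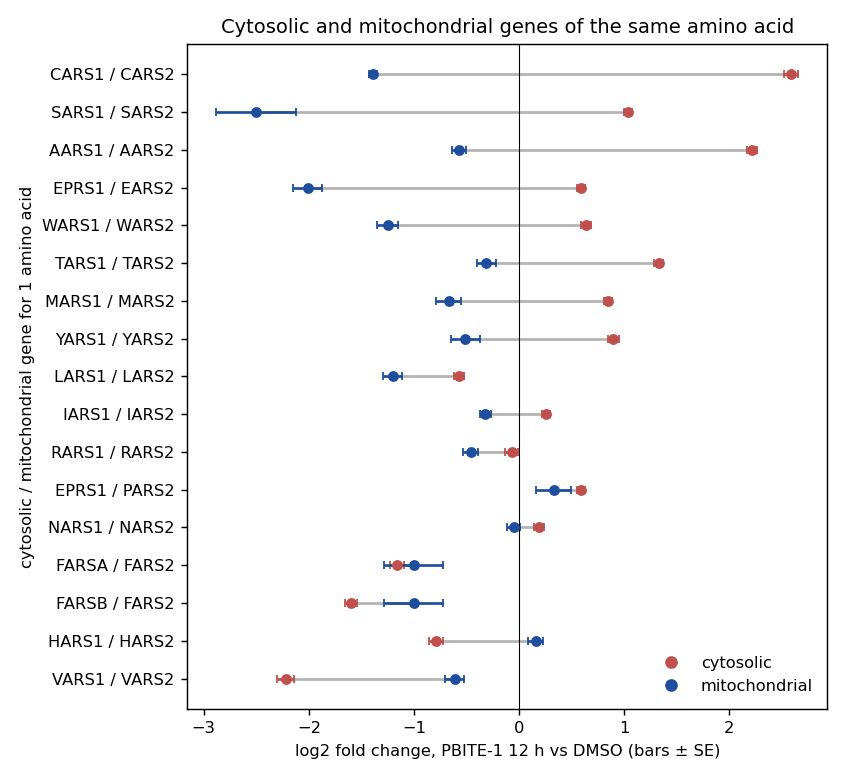
Log2 fold change at 12 h of PBITE-1 against DMSO (points, with bars of ± SE) for cytosolic (red) and mitochondrial (blue) genes of the same amino acid, in 17 pairs ordered by the gap. Red lies to the right of blue in 13 of 17 pairs, by 3.98 for CARS1 and CARS2.

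The effect of 12 h of PBITE-1 was set against that of Dox in a fit of all 18 samples. The response to PBITE-1 was the more positive for 17 members (48.6%, against 33.3% of all genes) and the more negative for 13 (37.1%, against 35.1%). These counts depend on the scaling. On library size only, the median difference of all genes was -0.28, and HARS2, NARS2, and PARS2 no longer passed. LARS1, FARS2, and VARS2 then passed as more negative, and KARS1 turned to a passing -0.17. By DESeq2, IARS2, PARS2, and TARS2 did not pass. By calls, 12 members were lower with Dox and higher at 12 h, namely 10 cytosolic genes, GARS1, and HARS2 (34.3%, against 7.86% of all genes). On library size only, 8 of the 12 were still lower with Dox. AARS1 then passed as higher (0.13, adjusted p = 0.00637), and WARS1 (0.10, adjusted p = 0.0672), HARS2 (0.07, adjusted p = 0.323), and QARS1 (-0.08, adjusted p = 0.106) did not pass. Another 15 were lower in both (42.9%, against 22.4% of all genes), of which 5 were cytosolic and 9 mitochondrial. CARS1 differed most between the responses, with 2.59 (SE 0.11), and SARS2 was next in size on the negative side, with -2.49 (SE 0.45). AARS1 had 2.31 (SE 0.07), and GARS1 and YARS1 had 2.01 each. MARS2 was the more strongly lowered with Dox, with a difference of 0.83 (SE 0.16, adjusted p = 1.84e-05). Cell line and treatment differ between the 2 experiments and cannot be told apart, and the duration of Dox is not known here.

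**Figure D5:**
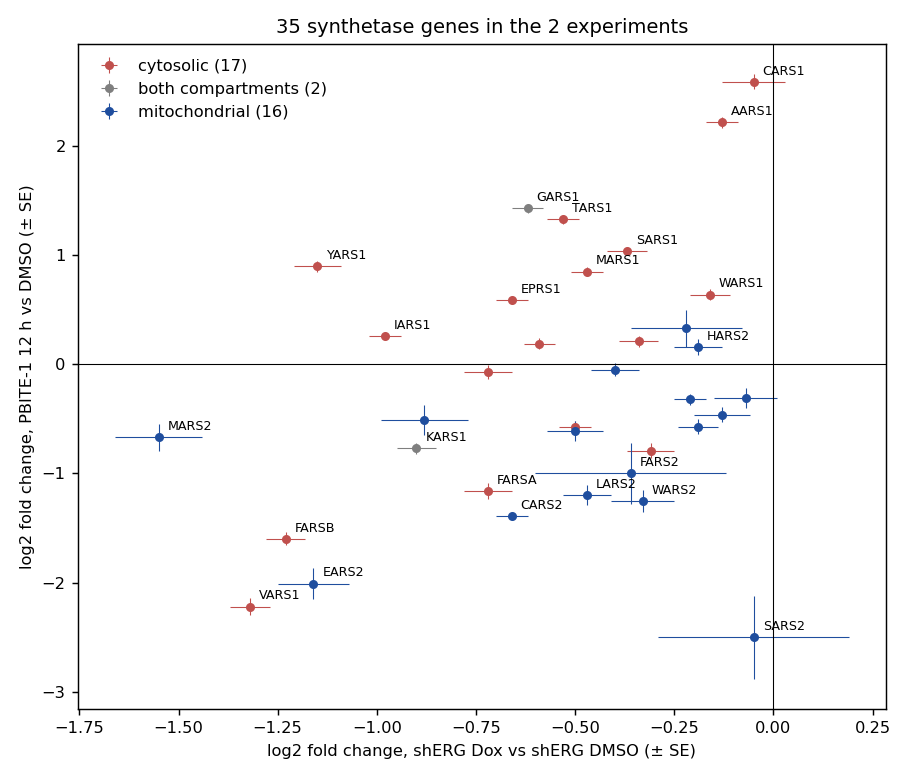
Log2 fold change with Dox in VCaP-shERG (horizontal) against that at 12 h of PBITE-1 in parental cells (vertical) for the 35 synthetase genes, colored by compartment, with bars of ± SE. All points lie left of 0, and on the vertical axis they run from -2.50 to 2.59.

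Within the cytosol, 7 members are subunits of the multi-tRNA synthetase complex (EPRS1, IARS1, KARS1, LARS1, MARS1, QARS1, and RARS1), and 12 with GARS1 are not. At 12 h, 4 of the 7 were higher and 2 lower, with values between -0.77 and 0.85, where 39.4% of all genes were higher and 39.4% lower. Of the 12 others, 8 were higher and 4 lower, with values between -2.22 and 2.59. Members at both extremes were thus outside the complex. With Dox, 7 of 7 and 11 of 12 were lower, against 35.3% of all genes. The 3 scaffold genes AIMP1, AIMP2, and EEF1E1 were all lower at 12 h, at -0.85, -0.48, and -1.28, and with Dox, at -0.44, -1.24, and -0.84. By fold class, 6 of 9 cytosolic class I genes were higher and 2 lower at 12 h. Of 7 class II genes 4 were higher and 3 lower, the latter with FARSA and FARSB, subunits of the same enzyme. EPRS1 holds a domain of each class and was counted in neither.

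Other genes of tRNA charging and of translation are read against 39.4% of all genes higher and 39.4% lower at 12 h. Of 5 other charging and proofreading genes, 1 was higher and 3 lower at 12 h, led by AARSD1 (-1.08), an alanyl-tRNA editing protein, with SEPSECS, of selenocysteine synthesis, at 0.71. Of 4 genes of mitochondrial amidation and formylation, 2 were lower at 12 h (50.0%), GATB (-1.07) and QRSL1 (-1.05). Of 9 mitochondrial translation factors, 1 was higher and 6 lower, with GFM1, an elongation factor, at -0.84. Of 8 cytosolic elongation and release factors, 2 were higher, EEF1D and EEF2 at 0.49 each, and 5 lower, with ETF1, the release factor, at -0.82.

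Genes that make and modify tRNA were mostly lower in both experiments. Of 18 genes of tRNA processing and export, 3 were higher and 12 lower at 12 h, with POP1, a subunit of RNase P, at -2.11. Of 24 tRNA modification genes, 1 was higher and 19 lower, with METTL1, the m7G methyltransferase, at -3.09 and ADAT2, a tRNA deaminase, at -3.05. Of 20 genes of RNA polymerase III and its factors, 3 were higher and 15 lower, with GTF3C6 at -2.08 and MAF1, the repressor of that polymerase, at 0.62. With Dox the lower genes were 16 of 18, 21 of 24, and 14 of 20. These shares stand against 39.4% of all genes lower at 12 h and 35.3% with Dox.

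Genes of the integrated stress response were mostly higher with PBITE-1 and mostly lower with Dox. Of 24 of its genes that are not synthetases, 21, 22, and 22 were higher at 4, 8, and 12 h, against 26.4%, 35.9%, and 39.4% of all genes, with median log2 fold changes of 1.30, 2.37, and 2.70, and 2 were lower at each time. VLDLR (-1.78) and ATF5 (-1.05) were those lower at 12 h. DDIT4, an inhibitor of mTORC1 signaling, went from 3.92 to 538 CPM (log2 7.09, SE 0.17). ATF4, named after its value was seen, went from 302 to 949 CPM (log2 1.65, SE 0.03). With Dox, 3 of the 24 were higher and 16 lower, against 35.1% and 35.3% of all genes, and ATF4 was at -0.50 (SE 0.04). Of 11 genes of the eIF2alpha kinases and their partners, 1 was higher at 12 h, EIF2AK3, the gene of PERK, at 1.93 (SE 0.07), and 9 were lower, with EIF2B5 at -1.27, against 39.4% of all genes in each direction.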

How the data were processed

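RNA-seq of rRNA-depleted RNA was measured in 18 samples. The authors deposited raw counts per Ensembl gene as whole numbers, with no normalization. Kallisto is named in the study's methods, but STAR and featureCounts on hg38 in the submitters' processing notes, and the annotation and the use of strand are not given in the sources used here. Genes were kept by filterByExpr over the 6 groups (14164 of 22034). Counts were scaled by TMM in edgeR 4.0.16 and fitted with limma 3.58.1 in R 4.3.3 (voom weights, then lmFit and eBayes), two-sided, with Benjamini-Hochberg adjustment over all 14164 genes. The VCaP-shERG and parental samples were fitted separately, and the difference of responses in a fit of all 18. TMM assumes that most genes do not change. Log2 CPM used a prior count of 2. The stricter limit, an absolute log2 fold change above 1, follows the study.

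Totals were between 11308600 and 17483423 counts. Positions and exon lengths are from GENCODE 29 on GRCh38. The labels do not say that samples came from separate cultures, so p-values measure the spread between these samples. Replicate pairs differed by more than sampling noise (chi-square per degree of freedom between 1.71 and 5.17), so none was counted as a copy. The fits were tested on simulated data.

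The members and lists were chosen with earlier results of these data known, so no list was tested. Values in every sample are given for ERG, GARS1, KARS1, the 4 passing members with the most positive and the 4 with the most negative change at 12 h and with Dox, and the pair with the widest gap. The lists were scaffold proteins, amidation and formylation, other charging, tRNA processing, tRNA modification, RNA polymerase III, cytosolic elongation, mitochondrial translation, eIF2alpha kinases, integrated stress response, and 2 marker lists. Of each list the 2 most positive and the 2 most negative at 12 h could be named. Results for 2 genes are not reported here. The settings also tried were DESeq2 1.42.0, the quasi-likelihood test of edgeR, RLE factors, library size only, 2 other low-count filters, other samples in the fit, the replicate number as a block, and leaving out each sample.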

Additional observations from a re-analysis of the deposited data

Results flagged for a closer look

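In 12 members the response to PBITE-1 at 12 h was called higher and that to Dox lower (34.3% of members, against 7.86% of all genes). These 12 were picked by calls from the same samples, so a test of the difference adds no separate support. The difference between the responses passed in a fit of all 18 samples for each. On the log2 scale this difference was 2.31 for AARS1, 2.01 for GARS1, 2.01 for YARS1, 1.82 for TARS1, 1.37 for SARS1, and 1.28 for MARS1. It was 1.21 for EPRS1, 1.20 for IARS1, 0.76 for WARS1, 0.74 for NARS1, 0.51 for QARS1, and 0.31 for HARS2. Adjusted p was at most 0.00238 (HARS2, limma-voom). On library size only, 4 of the 12 were no longer called lower with Dox, since AARS1 passed as higher and WARS1, HARS2, and QARS1 did not pass. On that scaling the difference for HARS2 was 0.05 (adjusted p = 0.610), and the other 11 still passed. Cell line and treatment cannot be told apart in this difference. Outlying samples were not looked for, since groups of 3 are too small for that test.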

How the results depend on the processing

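Library size only, without TMM, moved the Dox results most. The members called higher went from 0 to 3, and the medians went to -0.27 for cytosolic and -0.08 for mitochondrial genes. Log2 fold changes that turned positive were 0.13 for AARS1, 0.21 for CARS1, 0.10 for WARS1, 0.07 for AARS2, 0.07 for HARS2, 0.05 for IARS2, 0.04 for PARS2, 0.13 for RARS2, 0.21 for SARS2, and 0.19 for TARS2. At 4 h the medians went to 0.16 and -0.20, and RARS2 to -0.01. With at least 10 counts in every sample, CARS1 with Dox was 0.00, and AARS1 with Dox was -0.08 and did not pass (adjusted p = 0.0686, limma-voom). The cause was not tested.

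Leaving out 1 sample in turn gave between 28 and 30 members lower with Dox, between 12 and 14 higher and 19 lower at 12 h, and between 6 and 11 lower at 4 h. The 4 h count was 6 without the second or the third 4 h sample. IARS1, FARS2, and NARS2 were lost from those higher at 4 h without the second DMSO sample. Medians lay between -0.56 and -0.49 for cytosolic and between -0.37 and -0.30 for mitochondrial genes with Dox, and between 0.18 and 0.23 and between -0.18 and -0.12 at 4 h. Where values changed sign they did not pass, and their ranges follow. With Dox, CARS1 was between -0.11 and 0.01, FARS2 between -0.61 and 0.03, and SARS2 between -0.23 and 0.09. At 4 h, FARSA was between -0.12 and 0.00, PARS2 between -0.02 and 0.30, and RARS2 between 0.00 and 0.08. At 8 h, HARS2 was between -0.07 and 0.00, and IARS2 between -0.05 and 0.01. At 12 h, NARS2 was between -0.11 and 0.00.

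The replicate number does not pair the samples (correlations of same-numbered samples between -0.02 and 0.04). With it as a block, 13 members were higher and 19 lower at 12 h, and 29 lower with Dox, the counts without the block, and at 4 h 14 were higher and 11 lower. Over the other alternatives, counts of members at 12 h were 12 or 13 higher and 18 or 19 lower. Depth limits SARS2 and FARS2 most, with as few as 4 and 20 counts.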
